A study of Mus musculus with 12 samples.

Results

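The proteasome genes of mouse colonic epithelium were taken as every gene in the count files whose symbol begins with Psma to Psmg followed by a digit, which gave 49 of 23420 genes. They were compared between confluent colonic monolayers at day 3, day 4 and day 5 and freshly isolated colonic crypts, with 3 libraries in each of the 4 groups. Per the labels, crypts came from a wild-type mouse of 6 to 10 weeks, and cells from them were grown on collagen and replated on cross-linked gradient scaffolds, where they became contiguous within 3 to 5 days. No allele or agent is named for any group. Resistance across the layer, per the labels, was 526 ± 56 ohm cm2 (day 3), 623 ± 15 ohm cm2 (day 4) and 407 ± 53 ohm cm2 (day 5), without the type of error. No label says if a group's libraries were separate mice or cultures, and the p-values therefore reflect only how far these libraries scattered, which may be technical.

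The proteasome degrades proteins that carry ubiquitin. Its core is a barrel with outer rings of Psma subunits and inner rings of Psmb subunits, of which Psmb5, Psmb6 and Psmb7 cut peptide bonds. A cap of Psmc ATPases and Psmd subunits recognises, unfolds and feeds in the substrate. Interferons, above all interferon gamma, raise Psmb8, Psmb9 and Psmb10, which take the places of Psmb5, Psmb6 and Psmb7 in newly built cores and form the immunoproteasome, a source of peptides for class I antigen presentation. Intestinal epithelium and leukocytes both can express the immunoproteasome. In bulk RNA, fewer cells of a type and less RNA per cell cannot be told apart.

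Promoter windows are shown for the immunoproteasome genes Psmb8, Psmb9 and Psmb10, for the interferon-inducible activator subunit Psme1, and for the constitutive partners Psmb5 and Psmb6. Each runs from 250 bases before to 50 bases after the start of the gene in RefSeq (GRCm38.p6), 5′ to 3′ on the strand of the gene. Their positions were chr17:34197945-34198244 (plus strand) for Psmb8, chr17:34187281-34187580 (minus strand) for Psmb9, chr8:105938343-105938642 (minus strand) for Psmb10, chr14:55578244-55578543 (plus strand) for Psme1, chr14:54617946-54618245 (minus strand) for Psmb5 and chr11:70525107-70525406 (plus strand) for Psmb6. Capitals mark matches, on either strand, of the antioxidant response core TGACNNNGC, the interferon-stimulated response core GAAANNGAAA and the STAT site TTCNNNGAA.
Psmb8: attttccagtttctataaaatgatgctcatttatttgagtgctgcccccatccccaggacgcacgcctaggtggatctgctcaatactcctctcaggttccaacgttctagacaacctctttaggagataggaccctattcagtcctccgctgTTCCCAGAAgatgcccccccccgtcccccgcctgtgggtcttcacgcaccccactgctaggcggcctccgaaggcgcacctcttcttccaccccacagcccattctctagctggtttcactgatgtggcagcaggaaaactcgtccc
Psmb9: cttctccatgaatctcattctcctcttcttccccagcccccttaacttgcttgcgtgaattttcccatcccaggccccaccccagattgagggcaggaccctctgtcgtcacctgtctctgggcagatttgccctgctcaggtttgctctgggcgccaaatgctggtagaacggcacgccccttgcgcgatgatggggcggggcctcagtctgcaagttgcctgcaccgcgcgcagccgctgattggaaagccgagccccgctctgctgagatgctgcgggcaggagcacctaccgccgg
Psmb10: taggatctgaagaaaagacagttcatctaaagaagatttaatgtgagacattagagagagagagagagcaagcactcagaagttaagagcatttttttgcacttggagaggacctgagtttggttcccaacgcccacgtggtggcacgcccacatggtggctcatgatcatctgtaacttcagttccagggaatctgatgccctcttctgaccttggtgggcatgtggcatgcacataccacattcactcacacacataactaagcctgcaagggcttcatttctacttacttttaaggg
Psme1: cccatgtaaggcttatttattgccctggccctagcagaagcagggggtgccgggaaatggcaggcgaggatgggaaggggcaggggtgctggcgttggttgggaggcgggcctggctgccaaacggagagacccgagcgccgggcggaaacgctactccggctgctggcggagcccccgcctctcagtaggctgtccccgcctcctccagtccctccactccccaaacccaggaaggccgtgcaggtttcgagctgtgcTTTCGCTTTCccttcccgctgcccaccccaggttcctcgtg
Psmb5: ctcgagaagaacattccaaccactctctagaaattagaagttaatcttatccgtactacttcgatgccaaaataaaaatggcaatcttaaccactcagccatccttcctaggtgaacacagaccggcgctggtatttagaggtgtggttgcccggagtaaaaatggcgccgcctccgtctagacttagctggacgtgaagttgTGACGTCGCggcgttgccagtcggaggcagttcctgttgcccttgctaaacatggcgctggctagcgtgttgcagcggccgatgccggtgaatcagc
Psmb6: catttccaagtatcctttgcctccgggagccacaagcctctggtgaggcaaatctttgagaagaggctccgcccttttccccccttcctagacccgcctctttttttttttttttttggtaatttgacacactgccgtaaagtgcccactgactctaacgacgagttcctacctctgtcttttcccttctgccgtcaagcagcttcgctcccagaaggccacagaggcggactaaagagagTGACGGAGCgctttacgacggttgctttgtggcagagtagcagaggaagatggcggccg

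Psmb8 held 1 STAT match at -97 to -89 from the start, and Psme1 held 1 interferon-stimulated response match at 9 to 18, on the other strand. Psmb5 and Psmb6 each held 1 antioxidant response match, at -47 to -39 and at -9 to -1. None of these 3 motifs was found in the windows of Psmb9 and Psmb10. Windows were matched for 41 of the 49 genes, and none was matched for Psma8, Psmb1, Psmb2, Psmb7, Psmc3, Psmd3, Psmd7 and Psmg2. The antioxidant response core was present in 14.6% of the 41 windows and 14% of all 27025 windows of the same length. The STAT site was present in 7.32% of proteasome windows and 9.55% of all windows, and the CCAAT box (CCAAT, either strand, not capitalised above) in 36.6% and 41.1%. The interferon-stimulated response core was present in 5 proteasome windows (12.2%: Psmb3, Psmd4, Psmd9, Psme1 and Psmg4) against 3.99% of all windows. The motifs were searched independently, so matches may share bases, and a match is a run of letters and not a shown binding site.

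The libraries held 4518314 to 14290393 reads in genes. Levels are CPM, read counts relative to the reads in genes of the library after TMM scaling, given as mean ± SD with n = 9 for monolayers and n = 3 for crypts or for each day. Changes are log2 fold changes ± SE, and a gene was called at an edgeR adjusted p under 0.05 over 12863 genes tested. All 8 epithelial markers were tested, 3 higher and 4 lower in monolayers, against 30.7% higher and 32.8% lower among all genes. Their changes lay between -3.94 (Cdx1, an intestinal transcription factor) and 2.15 (Krt18, a simple-epithelium keratin). Epcam, the epithelial adhesion molecule, averaged 1478 ± 444 CPM in monolayers and 1707 ± 204 CPM in crypts. Crypt libraries also held RNA of other cells. Ptprc, the pan-leukocyte surface marker, averaged 0.233 ± 0.235 CPM in monolayers and 17 ± 6.48 CPM in crypts. Of 25 leukocyte markers 10 had no read in any monolayer library. Of the 10 tested, 7 were lower and 2, Cd68 and Csf1r, were higher in monolayers, against the same shares of all genes. Markers nearly absent from monolayers could pass the filter on low counts only through the crypts, so their lower calls were largely set in advance. The summed level of the 25 was 25.1 to 54.6 CPM in monolayers, most of it Cd68, and 44.7, 75.4 and 29.7 CPM in crypts replicates 1, 2 and 3. The 12 mesenchyme and vessel markers summed to 0.517 to 4.43 CPM in monolayers and to 36.4, 84.8 and 16.5 CPM in the crypt libraries. All 5 that were tested were called lower in monolayers, again with the direction largely set by the filter.

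Every immunoproteasome subunit fell in monolayers, and none of their constitutive partners did. Psmb8 had 1.2, 0.861 and 0.303 CPM at day 3, 1.12, 0.467 and 1.94 CPM at day 4 and 0.605, 0.448 and 1.39 CPM at day 5, against 26.8, 80.6 and 18.3 CPM in crypts. Every monolayer library lay below every crypt library, and crypts replicate 2 stood highest. The monolayer values rest on 3 to 16 reads a library. The change was -5.57 ± 0.40 (edgeR adjusted p = 6.79e-10), or -4.66 without crypts replicate 2. In GENCODE vM21 the exons of Psmb8 overlap Gm20496 on the opposite strand, and whether the counting used strand is not stated.

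Psmb10 had 3.59, 5.52 and 4.7 CPM at day 3, 3.62, 8.51 and 4.48 CPM at day 4 and 7.86, 12.6 and 5.72 CPM at day 5, against 70.1, 80.5 and 66 CPM in crypts. The groups did not overlap, and the crypt libraries lay close together. The mean was 6.28 ± 2.91 CPM in monolayers and 72.2 ± 7.47 CPM in crypts, lower by 11.7-fold in monolayers (-3.55 ± 0.20, edgeR adjusted p = 2.59e-11, between -3.70 and -3.46 with any 1 library left out).

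Psmb9 had 0.3, 0.215 and 1.36 CPM at day 3, 1.46, 1.5 and 3.15 CPM at day 4 and 2.22, 3.23 and 2.6 CPM at day 5, against 6.21, 17.1 and 10.3 CPM in crypts. The groups again did not overlap, and day 3 replicates 1 and 2 were lowest with 3 reads each. The change was -2.88 ± 0.42 (edgeR adjusted p = 7.26e-06), -2.44 without crypts replicate 2 and -3.30 without day 3 replicate 3. Psmb9 shares exon sequence on the opposite strand with Tap1, the peptide transporter gene next to it, so that reads of the pair could have been mixed if strand was not used.

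The leukocyte, mesenchyme and interferon sums were, like Psmb8, Psmb9 and Psmb10, highest in crypts replicate 2. In crypts replicate 3, the crypt library with the lowest leukocyte and mesenchyme sums, Psmb8 was 18.3 CPM, Psmb9 10.3 CPM and Psmb10 66 CPM. In crypts replicate 1 they were 26.8, 6.21 and 70.1 CPM. The part of leukocytes and other cells in the immunoproteasome levels of crypts was not tested.

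Psmb5, the partner of Psmb8 and the chymotrypsin-like site, had 31.7, 35.5 and 31 CPM at day 3, 36, 46.2 and 37.1 CPM at day 4 and 28.4, 25.2 and 26.7 CPM at day 5, against 43.5, 24.4 and 31.7 CPM in crypts. The groups overlapped (-0.01 ± 0.15, edgeR adjusted p = 0.952). Psmb6, the caspase-like site replaced by Psmb9, had 68.8, 64.1 and 63.5 CPM at day 3, 64.9, 58.9 and 49.4 CPM at day 4 and 51.2, 51.2 and 55.8 CPM at day 5, against 52.1, 55.2 and 61.4 CPM in crypts (0.05 ± 0.10, edgeR adjusted p = 0.674). Here too the groups overlapped. Psmb7, the trypsin-like site replaced by Psmb10, had 83.8, 73.7 and 60.1 CPM at day 3, 72.1, 65.7 and 67.7 CPM at day 4 and 63.7, 55 and 57.5 CPM at day 5, against 53.7, 49.3 and 50.3 CPM in crypts. All monolayer libraries lay above all crypt libraries, and Psmb7 rose by 0.38 ± 0.11 (edgeR adjusted p = 0.00441), a call lost when libraries were scaled by their totals (0.19, edgeR adjusted p = 0.118). Pseudogenes named after Psmb5, Psmb6 and Psmb7 are annotated in GENCODE vM21, and reads that match a gene and its pseudogene equally may be missing from the counts, so these levels carry that uncertainty. Exons of Psma4, Psma5, Psmb7, Psmc3, Psmd3, Psmd13, Psme1 and Psmc3ip also overlap a gene on the opposite strand, and those of Psmb5, Psmd1 and Psmg3 a gene on the same strand.

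**Figure D1:**
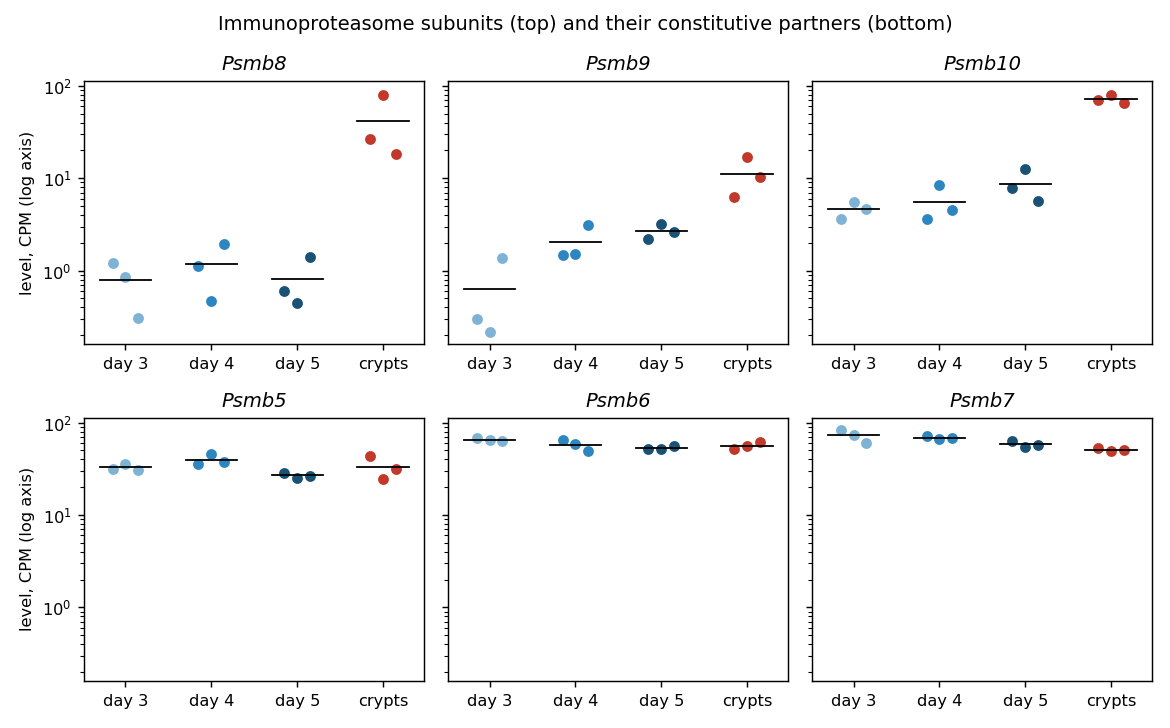
Levels of the immunoproteasome subunits Psmb8, Psmb9 and Psmb10 (top) and of the constitutive subunits each replaces, Psmb5, Psmb6 and Psmb7 (bottom), in CPM on a log axis. Points are libraries of day 3, day 4, day 5 and crypts (3 each) and lines are means: the upper 3 genes are lower in all 9 monolayer libraries than in all 3 crypt libraries, while the lower 3 stay within 24.4 to 83.8 CPM in every library.

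A ratio taken within a library does not depend on how libraries are scaled. Per transcript length (principal transcripts of GENCODE vM21, with 0.5 reads added), the log2 ratio of Psmb8 to Psmb5 was -6.12 ± 0.86 in monolayers and -0.78 ± 1.42 in crypts, a difference of -5.34. For Psmb9 to Psmb6 it was -6.16 ± 1.49 in monolayers and -3.20 ± 0.69 in crypts, a difference of -2.96. Psmb10 to Psmb7 stood at -3.68 ± 0.74 in monolayers and 0.32 ± 0.18 in crypts, a difference of -3.99. The 3 ratios were lower in all 9 monolayer libraries than in any crypt library, with p = 0.00909 each in a two-sided exact permutation test over 220 splits, the smallest value that this test can give, and 0.00909 after Benjamini-Hochberg adjustment over the 3. Expressed per 100 Psmb7 transcripts, monolayers held between 3.85 and 20.3 of Psmb10, and crypts 116, 144 and 116. Per 100 Psmb5 transcripts the monolayer libraries held 0.607 to 3.04 of Psmb8, against 34.1, 182 and 32 in crypts replicates 1, 2 and 3.

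The immunoproteasome subunits together made up 3.96 ± 1.88% of catalytic subunit transcripts per length in monolayers and 36.6 ± 9.13% in crypts. By library the share was 1.87, 2.6 and 2.8% (day 3), 2.41, 4.15 and 4.12% (day 4), and 5.05, 8.06 and 4.56% (day 5), against 31.8, 47.1 and 30.8% in crypts. All day 5 libraries lay above all day 3 and day 4 libraries, and far below the crypts. Both parts of the share moved. The summed CPM of Psmb5, Psmb6 and Psmb7 was 171 ± 15 (day 3), 166 ± 10.3 (day 4) and 138 ± 6.18 (day 5). The immunoproteasome sum was 6.02 ± 0.811 (day 3), 8.75 ± 2.25 (day 4) and 12.2 ± 3.52 CPM (day 5). It overlapped between day 4 (up to 10.5 CPM) and day 5 (from 9.71 CPM).

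**Figure D2:**
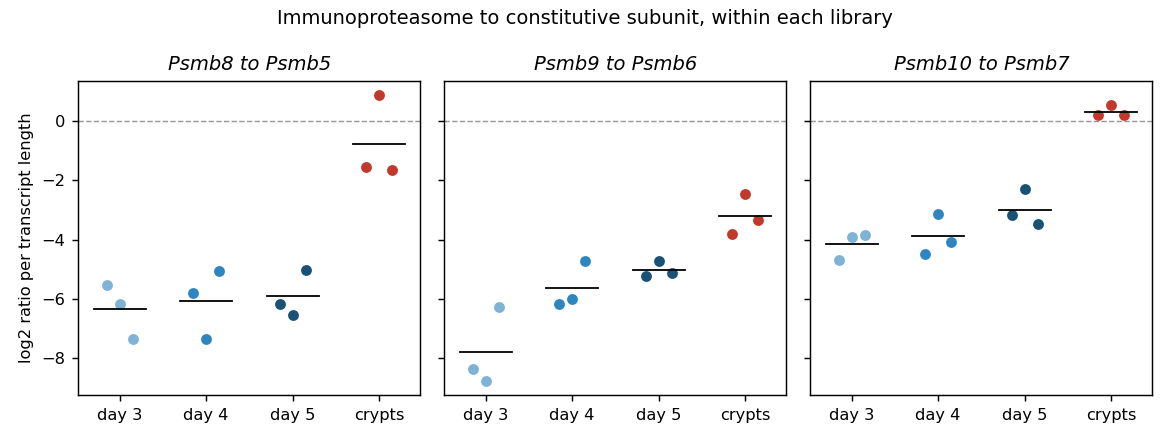
Log2 ratio of each immunoproteasome subunit to the constitutive subunit it replaces, per transcript length within each library, for day 3, day 4, day 5 and crypts (points are libraries, lines are means, the dashed line marks equal levels). Psmb10 is below Psmb7 in all 9 monolayer libraries (-4.70 to -2.30) and above it in all 3 crypt libraries (0.21 to 0.53).

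Outside the immunoproteasome the changes went both ways, and those of core and cap genes lay between -0.63 and 1.11 on the log2 scale. Of the 49 genes 47 passed the filter on low counts. Psma8, a testis form of the core, had 3 reads, all in day 4 replicate 1. Psmb11, the thymus form of the catalytic subunit, had 0 reads in every library. A floor of 3 reads corresponds to 0.21 to 0.664 CPM before TMM scaling. Between monolayers and crypts 14 of the 47 were called higher and 12 lower, or 55.3%, against 63.5% of all genes tested (30.7% higher and 32.8% lower). The libraries of monolayers and crypts did not overlap in 10 higher and 8 lower genes of the 47, against 45.9% of all genes (22.7% higher and 23.2% lower). The median change was 0.09 for the 47 and -0.03 for all genes. Scaled by library totals the medians became -0.09 and -0.21, and 8 rather than 14 were called higher, so that small changes below are read relative to the median of all genes. Beside the counts by role and by list that follow, the same shares of all genes (30.7% higher and 32.8% lower) are the background.

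**Figure D3:**
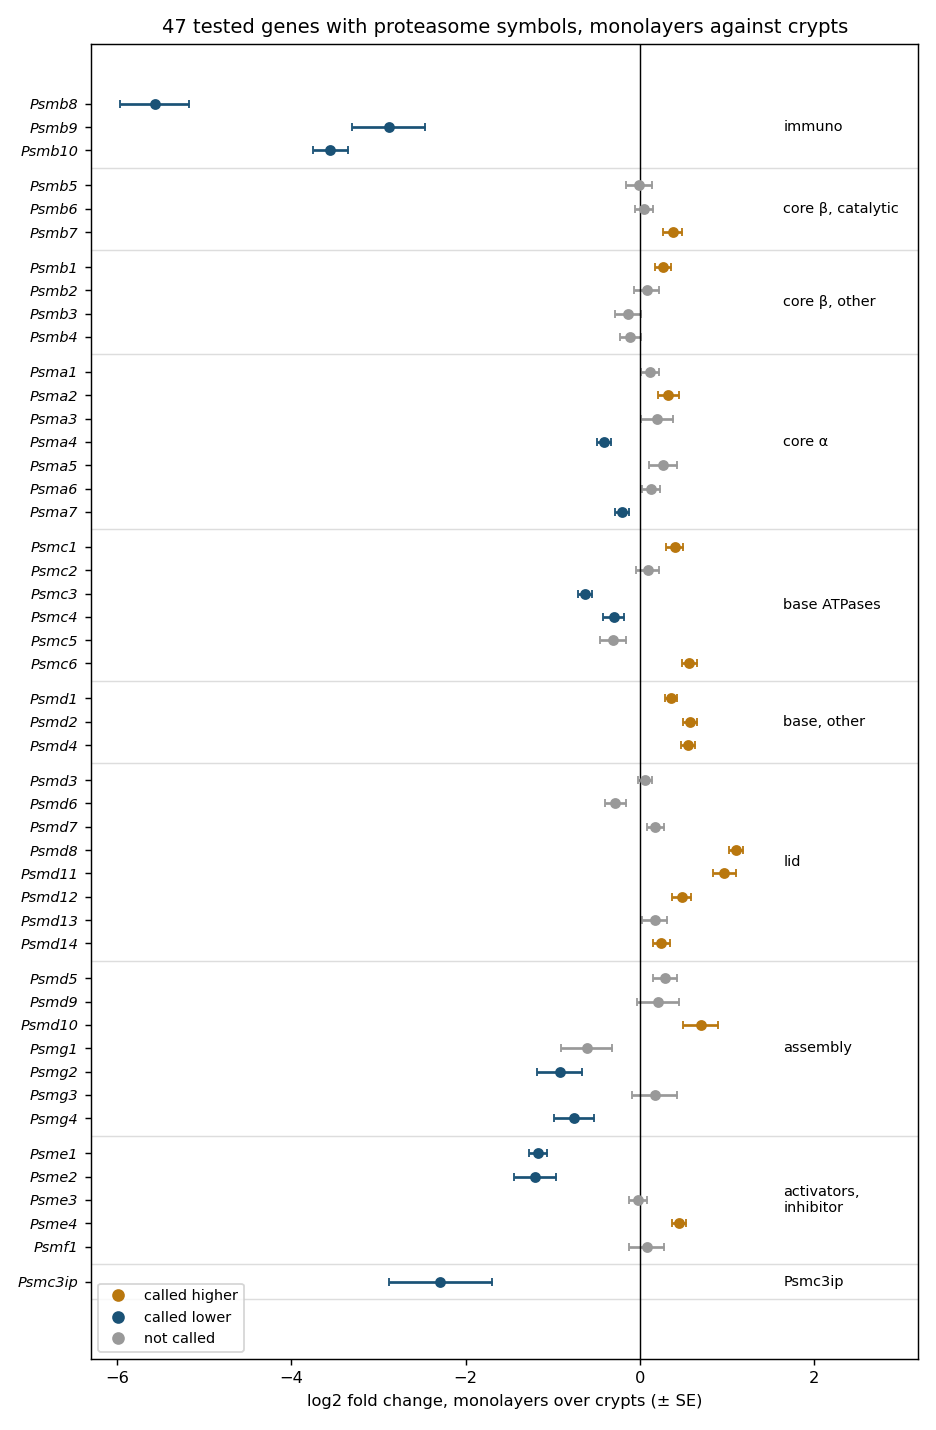
Log2 fold change of monolayers over crypts (± SE) for the 47 tested genes, grouped by role, with genes called higher, called lower and not called in separate colours. Psmb8, Psmb9 and Psmb10 stand at -5.57 to -2.88, while the other core and cap genes lie between -0.63 and 1.11.

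In the core without the immunoproteasome 3 of 14 tested genes rose and 2 fell, with a median of 0.10. Among the outer ring genes Psma2 had the highest change. Psma2 ran between 83.5 and 129 CPM in monolayers (median 118), against 84.1, 85.1 and 96.1 CPM in crypts. These overlapped (112 ± 17.6 CPM in monolayers and 88.4 ± 6.65 CPM in crypts, 0.33 ± 0.12, edgeR adjusted p = 0.0215, lost without crypts replicate 1 or 2). The monolayer libraries had 111 to 144 CPM of Psma4 (median 132) and the crypt libraries 161, 161 and 199 CPM. Its mean was the lowest relative to crypts, at 131 ± 10.8 CPM in monolayers and 174 ± 21.9 CPM in crypts (-0.41 ± 0.08, edgeR adjusted p = 0.000195), with no overlap between the groups. Psma7 was called lower at -0.20, a call lost on leaving out any of 8 libraries, and Psma1, Psma3, Psma5 and Psma6 were not called (0.12 to 0.27). Of the inner ring genes without a catalytic site Psmb1 had the highest change. In monolayers Psmb1 spanned 108 to 147 CPM around a median of 130, and in crypts it had 95.9, 121 and 103 CPM, with some overlap (129 ± 14.1 CPM in monolayers and 107 ± 12.8 CPM in crypts, 0.27 ± 0.09, edgeR adjusted p = 0.0151, lost without crypts replicate 1 or 3). Psmb3 ran between 16.1 and 27.3 CPM in monolayers (median 24), against 21.2, 29.9 and 24.5 CPM in crypts. This overlap went with the lowest change of these genes (-0.13, edgeR adjusted p = 0.491), and Psmb2 and Psmb4 were not called either. The summed level of these core genes was 914 ± 85.5 CPM in monolayers and 892 ± 43.4 CPM in crypts.

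Of the 17 cap genes 9 rose and 2 fell, or 64.7% against 63.5% of all genes, with a median of 0.25 and a summed level of 1866 ± 132 CPM in monolayers and 1480 ± 132 CPM in crypts. Psmd8, a lid subunit, had 173, 173 and 158 CPM at day 3, 170, 168 and 166 CPM at day 4 and 141, 145 and 142 CPM at day 5, against 68.9, 72 and 79.4 CPM in crypts. All monolayer libraries lay well above the crypts, 2.16-fold on average (1.11 ± 0.08, edgeR adjusted p = 3.22e-10), and this was the highest change of the 47. Psmd11, another lid subunit, averaged 89.5 ± 6.05 CPM in monolayers and 45.2 ± 13.8 CPM in crypts (0.97 ± 0.13, edgeR adjusted p = 4.23e-06). Psmd12 (0.48) and Psmd14 (0.25) were also called higher in the lid, the last of these lost in 8 of 12 fits with a library left out. The monolayer libraries had 41.7 to 74.7 CPM of Psmd6 (median 53.9) and the crypt libraries 64.5, 66.6 and 72.2 CPM, again overlapping. Psmd6 was the lowest of the lid at -0.28 ± 0.12 and missed the threshold (edgeR adjusted p = 0.0547), while DESeq2 called it lower (adjusted p = 0.0397). Psmd3, Psmd7 and Psmd13 lay between 0.06 and 0.18 without a call.

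All 3 tested base subunits that are not ATPases rose. Psmd2 ran between 184 and 223 CPM in monolayers (median 202), against 123, 130 and 143 CPM in crypts, with a gap between the groups. This large scaffold subunit averaged 198 ± 12.5 CPM in monolayers and 132 ± 10.5 CPM in crypts (0.58 ± 0.08, edgeR adjusted p = 3.08e-06). Psmd4, a receptor for ubiquitin chains, averaged 219 ± 19.6 CPM in monolayers and 149 ± 13.2 CPM in crypts (0.55 ± 0.08, edgeR adjusted p = 5.8e-06). The monolayer libraries had 217 to 269 CPM of Psmd1 (median 245) and the crypt libraries 176, 187 and 199 CPM. This scaffold subunit, also without overlap, was the least raised of the 3 (0.36 ± 0.07, edgeR adjusted p = 0.000229). The 6 ATPases of the base, which form 1 ring with 1 copy of each, were split. In monolayers Psmc6 spanned 106 to 150 CPM around a median of 132, and in crypts it had 83.9, 85.5 and 89.2 CPM. It averaged 128 ± 14.4 CPM in monolayers and 86.2 ± 2.73 CPM in crypts (0.57 ± 0.09, edgeR adjusted p = 1.67e-05). Psmc3 ran between 70.7 and 102 CPM in monolayers (median 87.3), against 118, 141 and 137 CPM in crypts. It averaged 85.7 ± 8.86 CPM in monolayers and 132 ± 12 CPM in crypts (-0.63 ± 0.08, edgeR adjusted p = 2.07e-06), and neither gene overlapped between the groups. Psmc1 was higher (0.40), Psmc4 lower (-0.30, lost in 10 of 12 fits with a library left out), and Psmc2 and Psmc5 were not called. Scaled by library totals, Psma2, Psmb1, Psmc1, Psmd1 and Psmd14 were no longer called higher (0.07 to 0.22), and Psmb4, Psmc5, Psmd6 and Psmg1 were called lower (-0.80 to -0.29).

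Assembly factors also moved in both directions. The monolayer libraries had 14.9 to 23.4 CPM of Psmd10 (median 20.9) and the crypt libraries 7.01, 14.2 and 15.2 CPM. This chaperone of the base, low in crypts replicate 1, averaged 20.1 ± 2.42 CPM in monolayers and 12.1 ± 4.46 CPM in crypts (0.70 ± 0.20, edgeR adjusted p = 0.00605). Psmd5 and Psmd9, its fellow base chaperones, were not called (0.29 and 0.21). In monolayers Psmg2 spanned 4.16 to 9.27 CPM around a median of 6.42, and in crypts it had 15.8, 9.27 and 12.6 CPM, with slight overlap. Of the 4 chaperones of the core it had the lowest change, with a mean of 6.64 ± 1.69 CPM in monolayers and 12.6 ± 3.28 CPM in crypts (-0.92 ± 0.26, edgeR adjusted p = 0.00479). Psmg4 was lower as well (-0.75 ± 0.23, edgeR adjusted p = 0.00921, lost without crypts replicate 2), and Psmg1 and Psmg3 were not called.

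Of the 5 activators and inhibitors of the core 1 rose and 2 fell. Psme1 and Psme2 together form the activator ring that interferon gamma raises. Psme1 had 85.1, 80.2 and 73.1 CPM at day 3, 90.4, 88.5 and 71.4 CPM at day 4 and 109, 95.9 and 86.7 CPM at day 5, against 159, 237 and 186 CPM in crypts. No monolayer library reached the crypts, and the change was -1.17 ± 0.10 (edgeR adjusted p = 1.4e-08). Psme2 ran between 4.23 and 14.4 CPM in monolayers (median 11.4), against 25.8, 28.1 and 18.6 CPM in crypts, without overlap. It averaged 10.5 ± 3.05 CPM in monolayers and 24.2 ± 4.95 CPM in crypts, the lowest change of the activators (-1.20 ± 0.24, edgeR adjusted p = 0.000216). Psme3, the nuclear activator, was not called (-0.02), and Psme4, a large single-chain activator, had the highest change. The monolayer libraries had 247 to 301 CPM of Psme4 (median 258) and the crypt libraries 169, 218 and 186 CPM, again without overlap (261 ± 15.8 CPM in monolayers and 191 ± 25.1 CPM in crypts, 0.45 ± 0.08, edgeR adjusted p = 9.92e-05). The inhibitor Psmf1 was not called (0.08). The symbol pattern also takes in Psmc3ip, a cofactor of meiotic recombination and not a proteasome subunit, which ran between 0 and 1 CPM in monolayers (median 0.727), against 1.2, 3.65 and 4.51 CPM in crypts. It averaged 0.637 ± 0.33 CPM in monolayers and 3.12 ± 1.72 CPM in crypts (-2.29 ± 0.59, edgeR adjusted p = 0.00243). Psmc3ip passed the filter on low counts only through the crypts, so the direction of its call was largely set in advance. It is among the 12 genes called lower and the 8 lower genes without overlap.

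Levels can be compared between genes only per length. On the scale of CPM per kilobase of transcript Psmd4 was the highest of the 49 genes in monolayers (164 ± 14.7), ahead of Psma4 (113 ± 9.28) and Psmd8 (104 ± 8.72), whose levels overlapped within their SD. In crypts Psme1 was first (175 ± 35.7) and Psma4 second (149 ± 18.8), a difference within the spread. Psmb10 ranked 44 in monolayers (4.79 ± 2.22) and 12 in crypts (55.1 ± 5.69). Psmb8 ranked 46 in monolayers (0.568 ± 0.328) and 32 in crypts (25.8 ± 20.8).

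Genes that serve the proteasome under other symbols mostly rose. Of 15 such parts and regulators 10 rose and 2 fell, or 80% against 63.5% of all genes, with a median of 0.42 against -0.03 for all genes. Nfe2l1, the transcription factor that raises proteasome genes when degradation is limiting, averaged 304 ± 25.9 CPM in monolayers and 175 ± 17.6 CPM in crypts (0.80 ± 0.08, edgeR adjusted p = 9.49e-08). Ddi2, the protease that activates the Nfe2l1 protein, fell (28.1 ± 4.03 CPM in monolayers and 57.8 ± 5.68 CPM in crypts, -1.05 ± 0.11, edgeR adjusted p = 2.33e-07). Nfe2l2, the antioxidant response factor, rose by 0.53, the core maturation protein gene Pomp by 0.42, the ubiquitin receptor gene Adrm1 by 0.40 and the lid subunit gene Shfm1 by 0.41. The largest rises were in Zfand5, a proteasome-binding activator (192 ± 16.8 CPM in monolayers and 61.4 ± 7.49 CPM in crypts, 1.63 ± 0.10, edgeR adjusted p = 3.36e-11), Zfand2a (1.29 ± 0.15) and Akirin2, needed for nuclear import of proteasomes (1.04 ± 0.12).

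Of 15 genes of ubiquitin supply and delivery 7 rose and 2 fell, or 60% against 63.5% of all genes, a share near the background. Without crypts replicate 1 the count was 6 higher and 0 lower. Sqstm1, a receptor that takes ubiquitinated cargo to autophagy, averaged 338 ± 83.9 CPM in monolayers and 136 ± 12.9 CPM in crypts (1.28 ± 0.10, edgeR adjusted p = 1.48e-09). The ubiquitin-activating enzyme gene Uba6 (1.04) and the shuttle factor gene Rad23b (0.65) were also higher.

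Downstream of the core, 8 of 12 class I peptide loading genes were lower and 0 higher by edgeR, or 66.7% against 63.5% of all genes called and 32.8% called lower (median -0.81). Without crypts replicate 2 the count was 7 lower and 1 higher (median -0.54). Erap1, which trims peptides in the endoplasmic reticulum, averaged 17.8 ± 3.26 CPM in monolayers and 90.7 ± 4.5 CPM in crypts (-2.36 ± 0.13, edgeR adjusted p = 8.79e-12). B2m, the class I light chain, had 128 ± 27.5 CPM in monolayers and 483 ± 297 CPM in crypts (-1.94 ± 0.19, edgeR adjusted p = 4.34e-08, and -1.31 without crypts replicate 2). Tap1 averaged 15.2 ± 3.39 CPM in monolayers, against 24.6, 75.3 and 19.9 CPM in crypts, and its change of -1.42 ± 0.27 became -0.56 (edgeR adjusted p = 0.0185) without crypts replicate 2. Nlrc5, the class I transactivator, averaged 1.13 ± 1.03 CPM in monolayers, against 3.81, 24.5 and 2.8 CPM in crypts, and its change of -3.45 ± 0.60 became -1.79 (edgeR adjusted p = 0.0371) without that library. Crypts replicate 2 thus set much of the size of both. Tapbpl, a peptide editor, was lower by both fits (-1.29 ± 0.21, and -1.09 without crypts replicate 2). The class I heavy chain genes H2-K1 and H2-D1 were not called (0.03 and -0.28), and without crypts replicate 2 H2-K1 was called higher (0.39, edgeR adjusted p = 0.000555).

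Of 25 interferon signalling and target genes 23 were tested, and 18 were called lower and 4 higher in monolayers, with a median of -2.02. Without crypts replicate 2 the count was 10 lower and 5 higher, with a median of -0.80, so the count rests in part on that library. The 4 called higher with all libraries were the receptor and kinase genes Ifngr1, Ifngr2, Jak1 and Jak2. Of the 25 genes 1 had no read in any monolayer library, and the lowest change was -9.77 (Iigp1). As with the leukocyte markers, genes nearly absent from monolayers could pass the filter only through the crypts. The direction of their lower calls was thus largely set in advance. Irf1, a transcription factor that acts on immunoproteasome genes, averaged 51.6 ± 20.5 CPM in monolayers and 138 ± 28.4 CPM in crypts (-1.54 ± 0.10, edgeR adjusted p = 1.79e-10). Irf8, another interferon-induced factor, had -2.91, and -2.84 without crypts replicate 2. The other 3 of the 4 largest called changes at a mean of 10 CPM or more depended on that library. Without it Ifit1 went to -1.99 in place of -3.55, Gbp7 to -0.89 in place of -2.27, and Ifit2, at 12.4 ± 7.34 CPM in monolayers and 3.81, 128 and 9.47 CPM in crypts, turned to 0.66 (edgeR adjusted p = 0.106) in place of -2.11. The summed level of the 25 was 1445 ± 287 CPM in monolayers, against 1139, 2526 and 1291 CPM in crypts replicates 1, 2 and 3, so 1 crypt library held about as much as the others together.

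Each day was compared with crypts in turn, and these comparisons share the same crypt libraries. Of the 47 genes, 17 were higher and 8 lower at day 3, against 56.3% of all genes called (28.4% higher and 27.9% lower). Day 4 had 14 higher and 10 lower, against 57.1% of all genes called (28.7% higher and 28.4% lower). Day 5 had 9 higher and 13 lower, against 57.3% of all genes called (28.4% higher and 28.9% lower). Psmb8, Psmb9 and Psmb10 were lower at every day. Psmb8 had log2 changes of -5.75 ± 0.61 (day 3), -5.19 ± 0.59 (day 4) and -5.77 ± 0.65 (day 5). The changes of Psmb9 were -4.12 ± 0.63 (day 3), -2.48 ± 0.57 (day 4) and -2.04 ± 0.57 (day 5), and those of Psmb10 were -3.95 ± 0.30 (day 3), -3.70 ± 0.30 (day 4) and -3.00 ± 0.29 (day 5).

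Among the monolayers themselves, day 4 did not separate from day 3. By edgeR and by DESeq2 0 of the 47 genes were called higher and 0 lower, with 2 at an unadjusted edgeR p under 0.05, against 2.77% of all genes called (1.59% higher and 1.17% lower). By day 5 most proteasome genes had slightly negative changes, 4 of them called. The inducible subunits Psmb9 and Psmb10 were called higher, while the inducible Psmb8, Psme1 and Psme2 were not called. Of the 47, 2 were called higher and 4 lower at day 5 than at day 3, against 20.4% of all genes called (9.9% higher and 10.5% lower), and 41 of the 47 changes were negative, with a median of -0.21 against -0.01 for all genes. Core genes outside the immunoproteasome were negative in 14 of 14 and cap genes in 16 of 17, against 6547 of 12863 for all genes. Of these, 2 core and 2 cap genes were called lower (14.3% and 11.8%), below the 20.4% of all genes called. The summed level of the cap was 1976 ± 63.8 CPM at day 3, 1919 ± 49.8 CPM at day 4 and 1702 ± 28.8 CPM at day 5, and that of the core 967 ± 52.5, 963 ± 37.5 and 813 ± 45.9 CPM.

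Psmd14, the deubiquitinase of the lid, had 51.4, 62.9 and 63.1 CPM (day 5), against 103, 99.6 and 80.8 CPM at day 3. The days did not overlap, and the fall of -0.67 ± 0.12 was the largest of the proteasome genes between these days (edgeR adjusted p = 0.000715). Psma7 had 74.6, 67.6 and 70.2 CPM at day 5, against 117, 102 and 97.5 CPM at day 3 (-0.57 ± 0.10, edgeR adjusted p = 0.000498), again without overlap. The days did not overlap in the other falls either. The lid subunit Psmd7 (-0.51 ± 0.13, edgeR adjusted p = 0.00755) and the outer ring subunit Psma6 (-0.45 ± 0.12, edgeR adjusted p = 0.0111, lost without day 3 replicate 1 or day 5 replicate 2) made up these falls. Psmc3ip had a change of -0.52 and was not called. Between day 5 and day 4, 2 genes were lower and 0 higher, against 7.56% of all genes called (3.36% higher and 4.2% lower). They were Psmd14 (-0.62 ± 0.13, edgeR adjusted p = 0.00386) and Psma7 (-0.45 ± 0.10, edgeR adjusted p = 0.01, lost without day 4 replicate 1 or day 5 replicate 2).

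Psmb9 and Psmb10 were the genes called higher at day 5 than at day 3. Psmb9 averaged 2.68 ± 0.51 CPM at day 5 and 0.626 ± 0.64 CPM at day 3 (2.07 ± 0.64, edgeR adjusted p = 0.0277). The call was lost without day 3 replicate 1, day 3 replicate 2 or day 5 replicate 2, and the change was 3.36 without day 3 replicate 3, the day 3 library with 1.36 CPM. Psmb10 averaged 8.71 ± 3.5 CPM at day 5 and 4.61 ± 0.968 CPM at day 3 (0.95 ± 0.31, edgeR adjusted p = 0.0367). Without day 5 replicate 2 it was 0.54 (edgeR adjusted p = 0.322), and the call was also lost without any of the 3 day 3 libraries. Psme1, with the third largest increase, did not pass (0.29 ± 0.14, edgeR adjusted p = 0.154), and Psmb8 had a change of -0.02 ± 0.81 (edgeR adjusted p = 0.996). Psme2, the partner of Psme1, had a change of -0.05 ± 0.32 (edgeR adjusted p = 0.937).

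Interferon genes rose over the same days. Between day 5 and day 3, 12 of 23 tested were higher and 0 lower by edgeR, against 9.9% of all genes called higher, with 22 changes above 0. Irf1 averaged 27.7 ± 0.767 CPM at day 3, 52.7 ± 4.75 CPM at day 4 and 74.3 ± 4.52 CPM at day 5, and 138 ± 28.4 CPM in crypts (day 5 against day 3, 1.42 ± 0.14, edgeR adjusted p = 8.31e-07). Of the 12 class I loading genes 2 rose between day 5 and day 3, Tapbp, a peptide-loading chaperone (0.95 ± 0.11, edgeR adjusted p = 6.29e-06), and H2-K1 (0.79, edgeR adjusted p = 0.00222). Tap1 (0.52), B2m (0.70, edgeR adjusted p = 0.0625) and Nlrc5 (2.23, edgeR adjusted p = 0.124) did not pass. Over the same days Ptprc averaged 0.259 ± 0.311 CPM at day 5 and 0.266 ± 0.166 CPM at day 3, near the floor of 3 reads. No leukocyte marker of the 10 tested was called by edgeR, against 20.4% of all genes. Markers nearly absent from monolayers could hardly be called between days. The part of leukocytes in these rises was not tested.

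**Figure D4:**
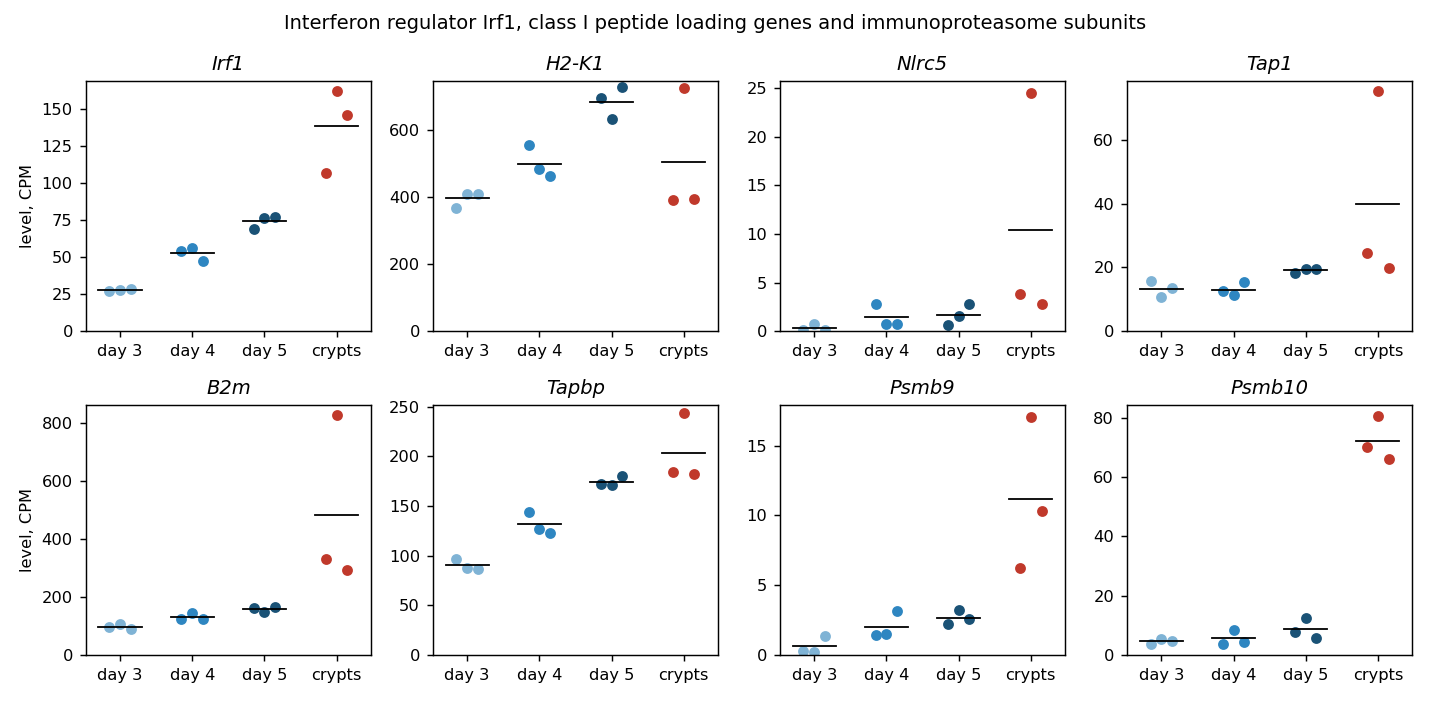
Levels in CPM of the interferon regulator Irf1, the class I genes H2-K1, Nlrc5, Tap1, B2m and Tapbp, and Psmb9 and Psmb10, for day 3, day 4, day 5 and crypts (points are libraries, lines are means, axes start at 0). Irf1 and Tapbp are higher in each day 5 library than in each day 3 library, and crypts replicate 2, the middle crypt point, is the highest crypt library in all 8 panels. Psmb8, Psme1 and Psme2, not called between day 5 and day 3, are not shown.

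Cycling genes were mostly lower at day 5. Of the 12 cycling markers 10 were lower and 1 higher at day 5 than at day 3, against 10.5% of all genes called lower, and 11 were lower in monolayers than in crypts. Mki67 averaged 419 ± 80.8 CPM at day 3, 318 ± 73.3 CPM at day 4 and 37.6 ± 5.5 CPM at day 5, and 961 ± 111 CPM in crypts. The part of cell division in the lower core and cap levels of day 5 was not tested.

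**Figure D5:**
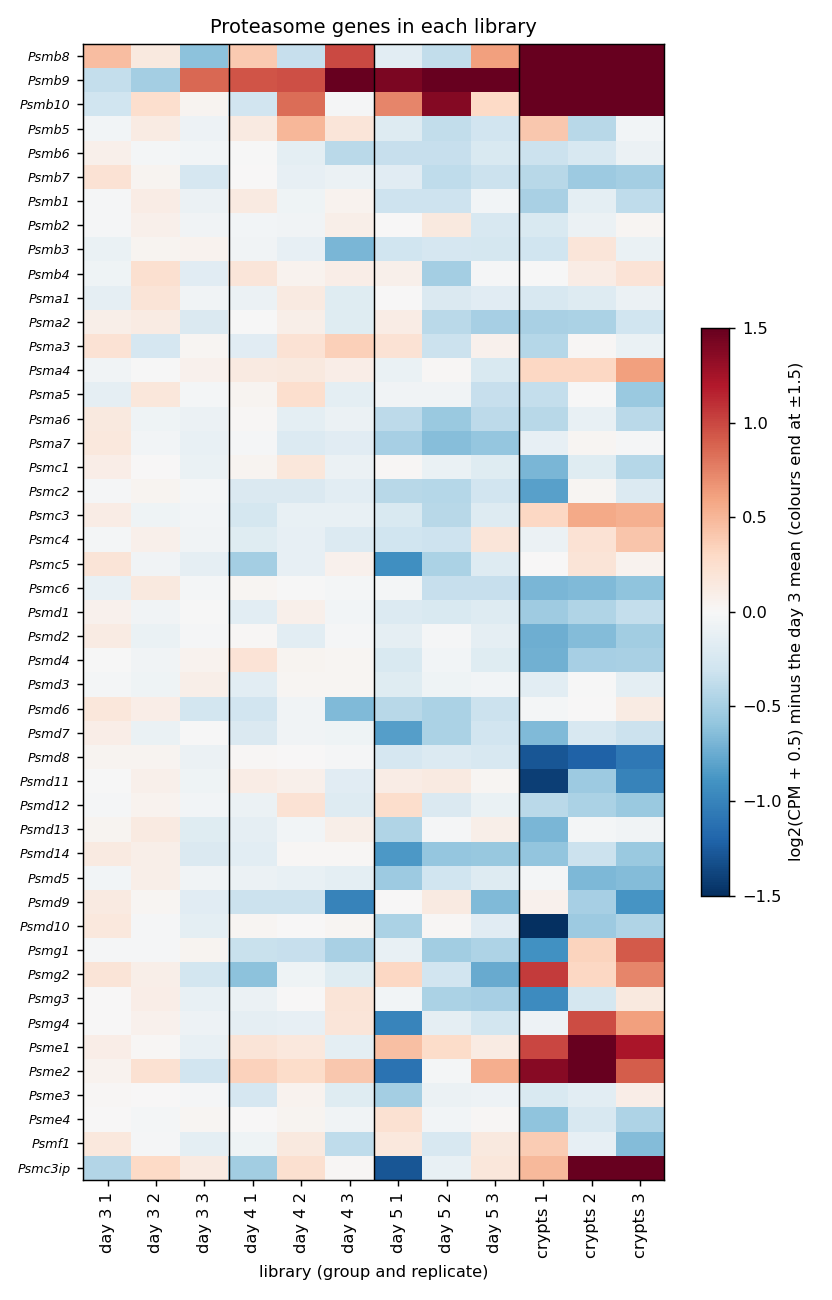
Level of each of the 47 tested genes in each library, as log2(CPM + 0.5) minus the mean of day 3, with libraries of day 3, day 4, day 5 and crypts from left to right and colours ending at ±1.5. Red in the top rows shows the immunoproteasome genes in crypts, the blue columns of day 5 show the slightly lower core and cap levels (median -0.21 against day 3), and among the blue cells of the crypts Psmd8 stands out in all 3 libraries and Psmd11 and Psmd10 in replicate 1.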

How the data were processed

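Total RNA of 12 libraries was sequenced, and samples were grouped by the labels. The values are counts deposited by the authors, whole reads per gene symbol without normalization. CASAVA 1.9, TopHat2 and HTSeq are named, per the submitters' processing notes, as are the builds mm9 and mm10 with no role. For the annotation and the strand setting, the sources used here state nothing. Reads in genes were 31.7 to 43.5% of reads counted, lines without a gene (no feature 38.7 to 49%, not unique 14.2 to 19.2%, ambiguous 0.154 to 0.207%) stayed out, and replicates differed by more than sampling noise. Not unique reads are missing from the gene counts, so genes with near-identical copies are uncertain.

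Genes passing filterByExpr (minimum count 10) were fitted with edgeR 4.0.16 on R 4.3.3 (TMM, quasi-likelihood test, 1 fit of all 12 libraries) and adjusted by the Benjamini-Hochberg method over 12863 genes. Alternatives were DESeq2 1.42.0, library totals, no filter, only the groups compared, a replicate block and each library left out. The fit was tested on simulated data. The members and the lists of other genes were chosen with earlier results of these data known. Values by library (the 9 monolayers as a range and median where days are not compared) are given for Psmb5 to Psmb10, for the highest and lowest change of each role and the 3 largest each way between day 5 and day 3, and for the 4 largest called changes of every list (10 CPM or more on average) beside genes named whatever their value, of which some items are not reported here. Other genes were named after their values were seen. Promoter windows were read from RefSeq (GRCm38.p6).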

Additional observations from a re-analysis of the deposited data

Results flagged for a closer look

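The change against crypts differed between days for 6 proteasome genes, tested as the difference between the days themselves, in which the shared crypts cancel. Between day 5 and day 3 this was 12.8% of the 47, against 20.4% of all genes called. Between day 5 and day 4 it was 4.26%, against 7.56%. Set against day 3, the change at day 5 was higher by 2.07 for Psmb9 and by 0.95 for Psmb10 on the log2 scale. For Psmd14 it differed by -0.67, for Psma7 by -0.57, for Psmd7 by -0.51 and for Psma6 by -0.45. Against day 4, day 5 differed by -0.62 for Psmd14 and by -0.45 for Psma7. Leaving out some single libraries ended the calls of Psmb9, Psmb10 and Psma6 against day 3 and of Psma7 against day 4. With 3 libraries a group, single libraries far from their group were not looked for.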

How the results depend on the processing

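Psmb8, Psmb9, Psmb10, Psme1, Psme2 and Psmd8 kept direction and call between monolayers and crypts under every alternative run. The 3 ratios did as well, over -5.77 to -4.52 (Psmb8 to Psmb5), -3.27 to -2.54 (Psmb9 to Psmb6) and -4.17 to -3.87 (Psmb10 to Psmb7). Of 887 comparisons of single proteasome genes with an alternative, 799 kept direction and call, 49 lost the call, 16 gained it and 23 changed sign. Library totals lowered the genes called higher to 8 of 47 (monolayers), 11 (day 3) and 4 (day 5) against crypts, and turned Psma1 (-0.07), Psma6 (-0.05), Psmb2 (-0.10), Psmb6 (-0.13), Psmc2 (-0.09), Psmd13 (-0.01), Psmd3 (-0.12), Psmf1 (-0.11) and Psmg3 (-0.01), none of them called. With this scaling the median of all genes was -0.21 in place of -0.03. Other changes of sign were all in uncalled genes with a library left out: Psmb3 (range -0.22 to 0.01), Psmb5 (-0.19 to 0.22), Psmc2 (-0.10 to 0.27), Psmd9 (-0.00 to 0.50), Psme3 (-0.08 to 0.09), Psmf1 (-0.16 to 0.37) and Psmg3 (-0.06 to 0.48). For day 5 against day 3, the genes called lower were 7 with library totals, 7 without the filter, 8 with only the groups compared and 8 with DESeq2, in place of 4, and those called higher 1 with only the groups compared. For day 5 against day 4, 4 were lower without the filter, 4 with only the groups compared and 5 with DESeq2, in place of 2. The cause was not tested. With each library left out, monolayers against crypts had 12 to 16 higher and 9 to 13 lower, day 5 against day 3 had 0 to 2 higher and 3 to 7 lower, and day 5 against day 4 had 0 to 1 higher and 1 to 5 lower. The replicate block gave 14 higher and 12 lower between monolayers and crypts and 2 higher and 4 lower between day 5 and day 3, the same counts as without it, and 0 higher and 3 lower between day 5 and day 4. Same-numbered libraries of different groups did not deviate together (18 pairs, r -0.0336 to 0.0585), so the numbers serve as names. Depth limits Psmb8 and Psmb9, with as few as 3 reads in a monolayer library. Leaving out crypts replicate 2, a choice made for the other lists after seeing the data, turned Ifit2 (0.66) and H2-D1 (0.09, uncalled in both fits), ended the call of Epcam (-0.16) and called H2-K1 higher (0.39).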
